A study of Caenorhabditis elegans with 4 samples.

Results

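Of the 19913 genes in the *Caenorhabditis elegans* count table, 61 carried a name of the lysozyme, saposin-like or antimicrobial peptide families, and these were described here: 10 *lys*, 5 *ilys*, 23 *spp*, 6 *abf*, 11 *cnc* and 6 *thn* genes. They were chosen by name, as every row called *lys*, *ilys*, *spp*, *abf*, *cnc* or *thn* followed by a number. RNA of whole L1 larvae (the first larval stage) was read in 2 libraries from N2, the wild type, and 2 from *pry-1(mu38)*, which carries a nonsense allele of *pry-1*, the worm gene for the Wnt pathway scaffold Axin. Animals of both strains were grown on standard NGM plates at 20 degrees and synchronized by 2 rounds of bleaching, and the labels name no pathogen. The comparison addressed which transcripts depend on *pry-1* at this stage.

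Nematodes have no antibodies and rely on secreted proteins against microbes. Lysozymes cut the peptidoglycan of bacterial cell walls, saposin-like proteins (caenopores) open pores in bacterial membranes, *abf* genes encode defensin-like antibacterial peptides, and thaumatin-like proteins (*thn*) resemble plant defence proteins. Many of the lysozymes and caenopores are made in the intestine, where they also act on the bacteria the worm eats. Caenacins (*cnc*) and the neuropeptide-like peptides around *nlp-29* are short glycine-rich peptides made largely in the epidermis, where fungal infection and wounding induce them. In *C. elegans* the beta-catenin BAR-1, which Axin restrains, has been linked to the intestinal response to bacteria.

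The libraries held between 27741375 and 33230854 counts on genes, and the 61 members took from 0.139% to 0.235% of them. The *pry-1* gene itself was counted 1926 and 2048 times in N2 and 3812 and 3471 times in the mutant, and since a nonsense allele leaves a transcript that can be counted, this does not check the labels. The N2 replicates differed more than those of *pry-1(mu38)*. The log2 differences between replicates had an SD of 0.80 in N2 and 0.46 in *pry-1(mu38)* over the 15101 genes tested, and of 1.19 and 0.72 over the tested members. N2 replicate 2 was most often the highest or the lowest library, for 5979 and 6135 of all genes tested. Next came *pry-1(mu38)* replicate 1, for 4564 and 4676. Among the marker lists, those of the intestine summed to between 2424 and 2613 CPM (counts scaled to library size) and those of the epidermis to between 239 and 299 CPM, while all 12 tested pharynx markers had lower fitted levels in *pry-1(mu38)*. Body wall muscle markers summed to 21724 CPM in N2 replicate 2 and to between 11689.7 and 11938 CPM in the other libraries, neuron markers to between 521 and 704 CPM, and coelomocyte markers to between 53.9 and 74.5 CPM. Markers of adult sperm summed to 3.38 to 4.20 CPM, and those of oocytes and embryos to 7.94 CPM in N2 replicate 1 and 19.6 to 21.2 CPM in the other libraries. In RNA of whole animals, fewer cells of a type and less RNA per cell cannot be told apart.

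In *pry-1(mu38)* larvae the caenopore genes lay mostly above N2, the caenacins mostly below it, and the lysozymes on both sides. Of the 61 members, 44 had enough counts to be tested, and the log2 fold change of *pry-1(mu38)* over N2 was positive for 27 of these (48.4% of all genes tested) and negative for 17 (51.6%). The members' median was 0.46 against −0.02 over all genes tested. Both *pry-1(mu38)* libraries were above both N2 libraries for 22 members (50% of those tested, against 29.1% of all genes tested) and below both for 9 (20.5% against 28% of all genes). A fitted difference of 2-fold or more was found for 12 members upward and 9 downward, and the shares over all genes were 3.7% and 12.3%. Of these 21 members, 14 still differed by 2-fold or more in the same direction without N2 replicate 2.

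With edgeR's quasi-likelihood test and Benjamini-Hochberg adjustment over all genes, no member passed an adjusted p of 0.05 in either direction (0 of 44, where 0% of all genes passed upward and 0.00662%, 1 gene, downward), and the members' adjusted p ran from 0.345 to 0.922. At an unadjusted p under 0.05 the same test had 16 members higher (5.93% of all genes) and 7 lower (8.23%). DESeq2 called *abf-6*, *lys-4*, *lys-10* and *spp-15* higher (1.21% of all genes) and *lys-2* and *cnc-11* lower (2.31%). edgeR's exact test called *abf-6*, *lys-4* and *spp-15* higher (0.967% of all genes) and *lys-2* lower (0.967%). After quantile normalization DESeq2 called 5 higher (1.57% of all genes) and 3 lower (2.1%). With the replicate number as a block the quasi-likelihood test called 16 higher (4.46%) and 9 lower (11%), and with a filter at a mean of 10 counts it called 0 of 46 in each direction (0% and 0.00663%). When 1 library was left out, this test called *abf-6* and *lys-4* higher without N2 replicate 2 (0.477% of all genes) and *spp-15* higher without *pry-1(mu38)* replicate 2 (0.328%), but no member higher without N2 replicate 1 (0%) or *pry-1(mu38)* replicate 1 (0.0883%). It called 6 members lower without *pry-1(mu38)* replicate 2 (2.91% of all genes), 2 without *pry-1(mu38)* replicate 1 (0.158%), and 0 without N2 replicate 1 (0%) or N2 replicate 2 (0.955%). With 2 libraries in each strain an exact two-sided permutation test of a single gene cannot go below p = 0.333, so levels are given library by library. From here on, a gene is said to be called where the quasi-likelihood test, DESeq2 or the exact test gave an adjusted p under 0.05 on all 4 libraries without a block, unless another fit is named.

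**Figure D1:**
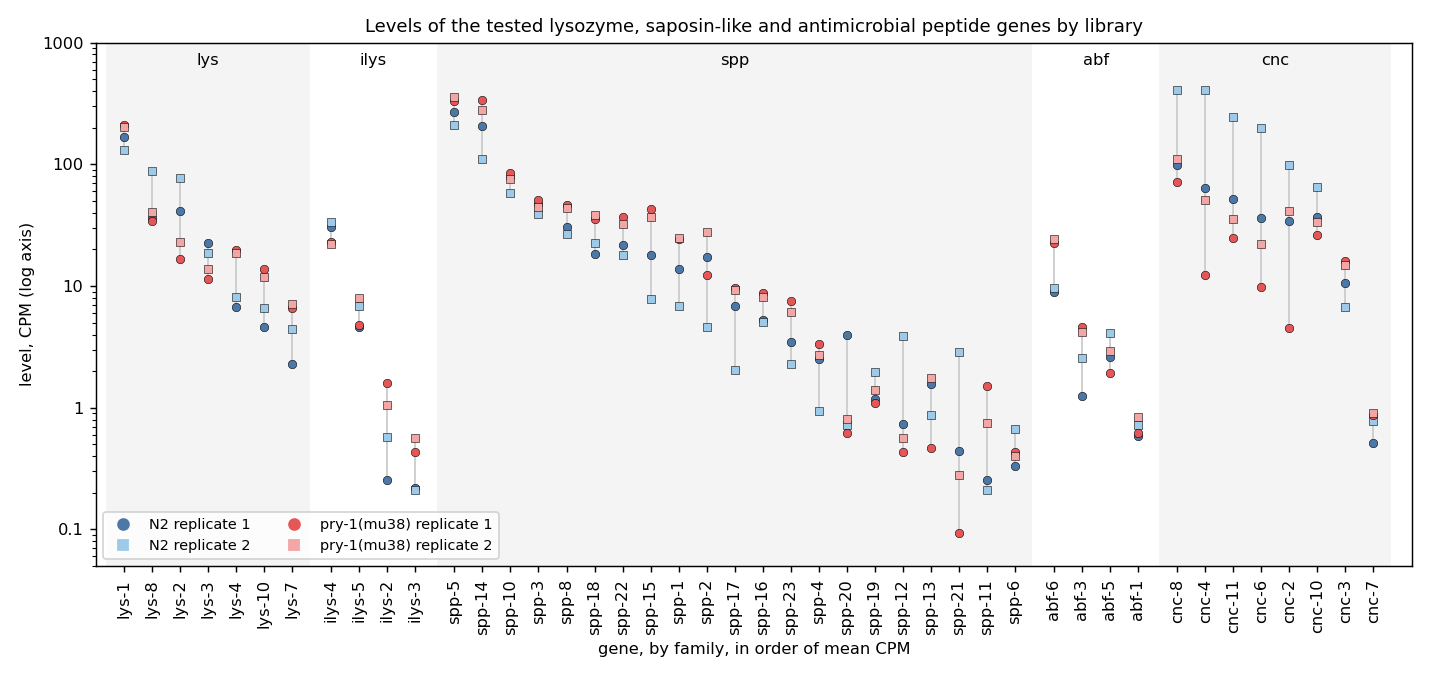
Level in CPM (log axis) of the 44 tested members in each of the 4 libraries, by family and in order of mean CPM; circles are replicate 1 and squares replicate 2, blue N2 and red *pry-1(mu38)*. The red symbols of *lys-4*, *lys-10* and *abf-6* lie above the blue ones, and N2 replicate 2 (light blue) is far above the other libraries for *cnc-4*, *cnc-6*, *cnc-8* and *cnc-11*.

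The *lys* family did not move one way. As a sum it took 281 and 337 CPM in N2 replicates 1 and 2 and 314 and 318 CPM in *pry-1(mu38)* replicates 1 and 2, and 4 of its 7 tested genes had positive and 3 negative log2 fold changes (median 0.47). Most of the sum was *lys-1* (57% of the family's CPM), an intestinal lysozyme linked to resistance against *Serratia*. Its level was 166 and 132 CPM in N2 and 211 and 202 CPM in *pry-1(mu38)* (log2 fold change 0.47, SE 0.18), and per length of transcript it was the highest of the family, at a mean of 186 CPM per kilobase. Both mutant libraries were above both wild-type libraries, by less than 2-fold. For *lys-4*, 6.73 and 8.10 CPM in N2 stood against 19.7 and 18.8 CPM in *pry-1(mu38)*. This 2.59-fold higher level (log2 1.37, SE 0.21) was called by DESeq2 (adjusted p = 0.00106) and edgeR's exact test (adjusted p = 0.00536) but not by the quasi-likelihood test (adjusted p = 0.345), and without N2 replicate 2 the quasi-likelihood test called it too (log2 1.51, adjusted p = 0.0376). The replicates of each strain were close together and far from the other strain.

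The levels of *lys-10* were 4.65 and 6.62 CPM in N2 and 13.8 and 11.8 CPM in *pry-1(mu38)* (log2 1.19, SE 0.28, DESeq2 adjusted p = 0.0308). A lysozyme controlled by the FOXO factor DAF-16, *lys-7*, was at 2.27 and 4.41 CPM in N2 and 6.55 and 7.11 CPM in *pry-1(mu38)* (log2 1.03, SE 0.40; 1.58 without N2 replicate 2), and no test called it, with the N2 replicates nearly as far from each other as the strains. The gene of the family with the opposite pattern and a call was *lys-2*, which has been linked to defence against *Pseudomonas*. It was at 41.7 and 77.9 CPM in N2 and at 16.8 and 23.2 CPM in *pry-1(mu38)*, a 2.99-fold lower level (log2 −1.58, SE 0.37) called by DESeq2 (adjusted p = 0.00769) and edgeR's exact test (adjusted p = 0.0207). N2 replicate 2 was the highest library, and without it the log2 fold change was −1.07. The quasi-likelihood test called it when *pry-1(mu38)* replicate 2 was left out (adjusted p = 0.0469). Both wild-type libraries of *lys-3* were also above both mutant libraries, at 22.6 and 18.8 CPM against 11.5 and 13.8 CPM (log2 −0.71, SE 0.22), a difference that no test called. For *lys-8*, a lysozyme of the TGF-beta response, the strains overlapped: N2 replicate 2 held 88.1 CPM and the other libraries 36.2, 34.3 and 40.7 CPM, and the log2 fold change of −0.73 (SE 0.44) was 0.049 without that library. The remaining *lys-5*, *lys-6* and *lys-9* had at most 9 counts in any library and were not tested.

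Of the invertebrate-type lysozymes, *ilys-4* made up 79% of the family's CPM and the genes above N2 in both mutant libraries had few counts. Its level was 30.4 and 33.8 CPM in N2 and 23.2 and 22.1 CPM in *pry-1(mu38)* (log2 −0.50, SE 0.17), with both mutant libraries lower and no test calling it. The adjacent *ilys-2* and *ilys-3* were rare: *ilys-2* had 7 and 19 counts in N2 and 51 and 34 counts in *pry-1(mu38)* (log2 1.64, SE 0.55; 2.34 without N2 replicate 2). For *ilys-3*, known as a lysozyme of the pharynx and intestine that breaks down bacterial cell walls, there were 6 and 7 counts in N2 and 14 and 18 counts in *pry-1(mu38)* (log2 1.19, SE 0.47). Neither was called, and 3 counts in a library correspond to 0.0907 to 0.11 CPM. The libraries of the strains overlapped for *ilys-5* (4.61 and 6.92 CPM in N2, 4.75 and 7.92 CPM in *pry-1(mu38)*, log2 0.13, SE 0.39), and *ilys-1* had 0 counts in all 4 libraries.

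Most of the caenopore genes lay above N2. Of 21 tested *spp* genes, 15 had positive and 6 negative values (median log2 fold change 0.72), and their libraries were separate in 12 upward (29.1% of all genes tested) and 2 downward (28% of all genes). The summed level was 749 and 529 CPM in N2 and 1033 and 997 CPM in *pry-1(mu38)*, and N2 replicate 2 was the lowest library for 14 of the 21 genes. Without that library the median was 0.35, with 17 genes positive. A single family member, *spp-15*, was called, as higher by both DESeq2 (1.21% of all genes) and the exact test (0.967%). With the replicate number as a block, a pairing that no source states, the quasi-likelihood test called 9 *spp* genes higher (4.46% of all genes) and 2 lower (11%).

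The abundant caenopores were *spp-5* and *spp-14*, which together held 63.6% of the family's CPM and also led it per length. SPP-5 is an intestinal pore-forming protein that permeabilizes bacteria. Its transcript was at 268 and 212 CPM in N2 and 329 and 359 CPM in *pry-1(mu38)* (log2 0.52, SE 0.19), and per length it reached a mean of 789 CPM per kilobase, the highest of the 60 members with an annotated length. For *spp-14* the levels were 207 and 110.4 CPM in N2 and 336 and 282 CPM in *pry-1(mu38)* (log2 0.96, SE 0.34; 0.57 without N2 replicate 2). In both genes all mutant libraries were above all wild-type libraries, and no test called either at an adjusted p of 0.05. By contrast *spp-3* at 47.5 and 38.9 CPM in N2 and 51.04 and 44.7 CPM in *pry-1(mu38)*, next to them per length, overlapped between the strains (log2 0.15, SE 0.19). The prosaposin-like *spp-10* overlapped as well (log2 0.22, SE 0.21).

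The call in the family, *spp-15*, had 18.04 and 7.86 CPM in N2 and 43.2 and 36.8 CPM in *pry-1(mu38)*. It was 3.09-fold higher (log2 1.63, SE 0.43), with an adjusted p of 0.0164 in DESeq2 and 0.0429 in edgeR's exact test, and the log2 fold change was 1.14 without N2 replicate 2. Its exons share 243 bases with *C48E7.6* on the opposite strand in the WBcel235 annotation, and since a kit that does not mark strand was used, reads of the pair cannot be told apart there. Shorter overlaps with an opposite-strand gene exist for *spp-16* (170 bases), *spp-19* (84 bases), *lys-8* (38 bases) and *spp-1* (19 bases). Without *pry-1(mu38)* replicate 2 the quasi-likelihood test called *spp-15* as well (adjusted p = 0.0306). SPP-1, another caenopore shown to kill bacteria, had transcript levels of 13.7 and 6.89 CPM in N2 and 24.6 and 24.7 CPM in *pry-1(mu38)* (log2 1.26, SE 0.37, DESeq2 adjusted p = 0.0613). The mutant libraries were nearly equal, while the wild-type libraries differed, replicate 2 being at 0.502 times the level of replicate 1.

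Further caenopores with both mutant libraries above N2 were of medium or low level. For *spp-18*, 18.5 and 22.6 CPM in N2 stood against 35.3 and 38.2 CPM (log2 0.84, SE 0.19), and for *spp-23*, 3.44 and 2.30 CPM against 7.61 and 6.17 CPM (log2 1.27, SE 0.34). The neighbour of *spp-23*, *spp-17*, was at 6.81 and 2.05 CPM in N2 and 9.62 and 9.20 CPM in *pry-1(mu38)* (log2 1.09, SE 0.59; 0.46 without N2 replicate 2), and N2 replicate 2 was the lowest library. The rare *spp-11* had 7 counts in each N2 library and 49 and 24 in the mutant, the largest positive log2 fold change of the tested members (2.27, SE 0.56; adjusted p of the exact test 0.0608, while DESeq2 gave none after its filter). The others with separate libraries were *spp-4*, *spp-8*, *spp-16* and *spp-22*, with log2 fold changes from 0.66 to 0.82.

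Below N2 in both mutant libraries lay *spp-12* and *spp-21*, and there N2 replicate 2 held most of the counts. SPP-12 differs from the intestinal caenopores in that it is made in pharyngeal neurons. Its transcript had 20 and 128 counts in N2 and 14 and 18 counts in *pry-1(mu38)*, and the log2 fold change of −2.21 (SE 0.86) was −0.56 without N2 replicate 2. For *spp-21* there were 12 and 95 counts in N2 and 3 and 9 counts in *pry-1(mu38)* (log2 −3.13, SE 1.10; −1.22 without N2 replicate 2). In *spp-20* the high library was instead N2 replicate 1, with 109 counts against 24, 20 and 26 in N2 replicate 2 and the *pry-1(mu38)* libraries (log2 −1.71, SE 0.86), and the log2 fold change was 0.01 without that library. Between the strains *spp-2*, *spp-6*, *spp-13* and *spp-19* overlapped, and *spp-7* and *spp-9* were not tested, with at most 18 counts in a library.

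**Figure D2:**
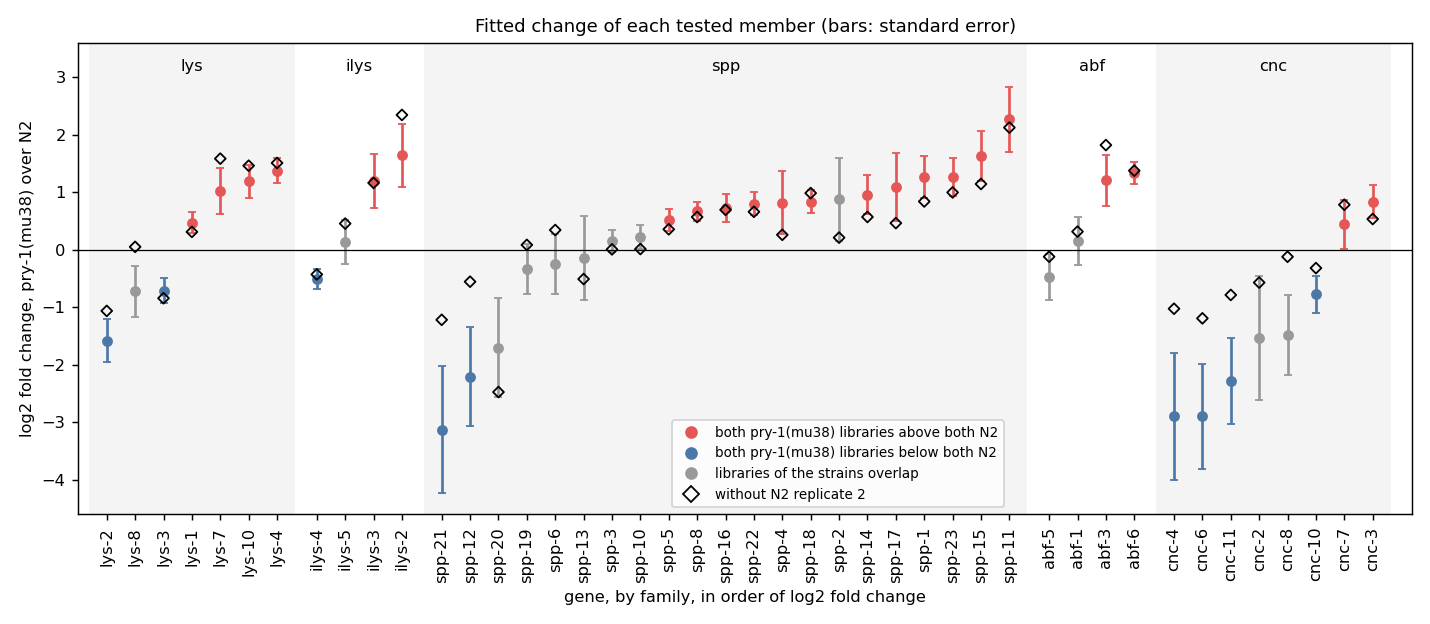
Log2 fold change of *pry-1(mu38)* over N2 for the 44 tested members, by family and in order of the fold change, with the standard error as bars; red and blue points have separate libraries in the 2 strains, grey points overlap, and open diamonds are the fit without N2 replicate 2. The diamonds of the *cnc* genes other than *cnc-7* move toward 0, from −2.90 to −1.03 for *cnc-4*, whereas those of *lys-4* and *abf-6* stay near their points.

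Among the defensin-like *abf* genes, *abf-6* held 69.4% of the CPM and was higher in *pry-1(mu38)* by a difference whose size hardly depended on any one library. Its level was 9.002 and 9.58 CPM in N2 and 22.5 and 24.4 CPM in *pry-1(mu38)*. The 2.52-fold higher level (log2 1.33, SE 0.19) had an adjusted p of 0.000722 in DESeq2, 0.00331 in edgeR's exact test and 0.345 in the quasi-likelihood test, where leaving out N2 replicate 2 brought it to 0.0392. Leaving out any one library kept the log2 fold change between 1.29 and 1.41. The less abundant *abf-3* was at 1.24 and 2.57 CPM in N2 and 4.63 and 4.21 CPM in *pry-1(mu38)* (log2 1.21, SE 0.44; 1.82 without N2 replicate 2), separate between the strains and called, among the fits without a block, only after quantile normalization with DESeq2 (adjusted p = 0.039). Its N2 replicates differed by 2.06-fold. The adjacent neighbour of *abf-6*, *abf-5*, did not share its pattern: the strains overlapped at 2.63 and 4.11 CPM in N2 and 1.92 and 2.93 CPM in *pry-1(mu38)* (log2 −0.48, SE 0.41). For *abf-1* the levels also overlapped, at 0.585 and 0.725 CPM in N2 and 0.621 and 0.842 CPM in *pry-1(mu38)* (log2 0.15, SE 0.42). The antibacterial peptide gene *abf-2* had 5 or 6 counts in each library and *abf-4* at most 18, and neither was tested.

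The caenacins went the other way from the caenopores, and the size of their difference depended on single libraries, most on N2 replicate 2. Of 8 tested *cnc* genes, 6 had negative log2 fold changes (median −1.51), with 4 below N2 in both mutant libraries (28% of all genes tested) and 2 above (29.1%). With the replicate number as a block, which no source says pairs the libraries, the quasi-likelihood test called 6 of the 8 lower (11% of all genes). As a sum the family took 334 CPM in N2 replicate 1 and 1432 CPM in N2 replicate 2, against 166 and 310 CPM in *pry-1(mu38)* replicates 1 and 2. N2 replicate 2 was the highest library for 6 of the 8 genes and *pry-1(mu38)* replicate 1 the lowest for 6 of the 8. Without N2 replicate 2 the median was −0.45, and without N2 replicate 1 it was −2.11. Without *pry-1(mu38)* replicate 1 it was −0.92, and without *pry-1(mu38)* replicate 2 it was −2.16. In each of these fits 6 of the 8 genes had negative values.

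Most abundant per length was *cnc-8*, at 98.6 and 409 CPM in N2 and 71.7 and 109.9 CPM in *pry-1(mu38)*, where the strains overlapped (log2 −1.48, SE 0.69; −0.12 without N2 replicate 2). The levels of *cnc-4* were 64.1 and 407 CPM in N2 and 12.4 and 50.6 CPM in *pry-1(mu38)* (log2 −2.90, SE 1.10; −1.03 without N2 replicate 2). Here the replicates of N2 differed by 6.34-fold and those of *pry-1(mu38)* by 4.06-fold. For *cnc-6* the levels were 36.3 and 200.1 CPM in N2 and 9.75 and 22.01 CPM in *pry-1(mu38)* (log2 −2.90, SE 0.91; −1.19 without N2 replicate 2). For *cnc-11* they were 52.4 and 243 CPM in N2 and 25.1 and 35.9 CPM in *pry-1(mu38)* (log2 −2.28, SE 0.75, DESeq2 adjusted p = 0.0133, exact test adjusted p = 0.0937), and without N2 replicate 2 the value was −0.79. In *cnc-4*, *cnc-6* and *cnc-11* both mutant libraries were below both wild-type libraries, and N2 replicate 1 was nearer to the mutant libraries than to N2 replicate 2. The quasi-likelihood test called *cnc-2*, *cnc-4*, *cnc-6*, *cnc-8* and *cnc-11* lower without *pry-1(mu38)* replicate 2 (2.91% of all genes) and *cnc-4* and *cnc-6* without *pry-1(mu38)* replicate 1 (0.158%), and it called no caenacin when either N2 library was left out.

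The fungus-induced *cnc-2*, a target of TGF-beta signalling in the epidermis, overlapped between the strains, with 34.1 and 98.5 CPM in N2 and 4.56 and 41.3 CPM in *pry-1(mu38)*, and its mutant replicates differed by 9.05-fold (log2 −1.53, SE 1.08). Leaving out the lower mutant library, replicate 1, gave a value of −0.66, leaving out the higher one gave −3.83, and without N2 replicate 2 it was −0.57. Lower in both mutant libraries was *cnc-10*, at 37.3 and 65.3 CPM in N2 and 26.1 and 33.8 CPM in *pry-1(mu38)* (log2 −0.78, SE 0.33; −0.32 without N2 replicate 2). The opposite order was seen in *cnc-3*, with 10.7 and 6.71 CPM in N2 and 16.02 and 15.03 CPM in *pry-1(mu38)* (log2 0.84, SE 0.29), and in the rare *cnc-7* (log2 0.44, SE 0.42). N2 replicate 2 was the lowest library for *cnc-3*. The untested *cnc-1* and *cnc-5* had at most 6 counts in a library, and *cnc-9* had 8 and 28 counts in N2 and 0 and 4 counts in *pry-1(mu38)*.

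The other family of epidermal antimicrobial peptides, the 11 *nlp* genes from *nlp-24* to *nlp-34*, varied over the libraries in the same order as the caenacins. Their summed level was 1369 and 4960 CPM in N2 and 672 and 1149 CPM in *pry-1(mu38)*. All 11 had negative log2 fold changes (median −1.82; −0.70 without N2 replicate 2), and N2 replicate 2 was the highest and *pry-1(mu38)* replicate 1 the lowest library for each of them. DESeq2 called 6 lower, *nlp-24*, *nlp-25*, *nlp-26*, *nlp-27*, *nlp-29* and *nlp-32* (2.31% of all genes were called lower), the quasi-likelihood test and the exact test called none, and 7 had an unadjusted p under 0.05 in the quasi-likelihood test (8.23% of all genes). The quasi-likelihood test called 9 of them lower without *pry-1(mu38)* replicate 2 (2.91% of all genes), *nlp-25* alone without *pry-1(mu38)* replicate 1 (0.158%), and none when either N2 library was left out. With the replicate block it called 10 of the 11 lower (11% of all genes). The infection and wound reporter gene *nlp-29* had 429.8 and 2013 CPM in N2 and 166 and 321 CPM in *pry-1(mu38)* (log2 −2.32, SE 0.80, DESeq2 adjusted p = 0.0152; log2 −0.82 without N2 replicate 2).

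As sums, the markers of pharynx, body wall muscle, neurons and coelomocytes stood in the same order over the libraries. Those of the intestine, the epidermis, adult sperm, and oocytes and embryos did not. Negative log2 fold changes were seen in all 5 muscle markers (median −0.52), all 4 coelomocyte markers (median −0.47) and 4 of the 5 neuron markers (median −0.11). The 12 pharynx markers, of which all had negative log2 fold changes (median −1.78; −0.53 without N2 replicate 2), summed to 498 and 1530 CPM in N2 and to 166 and 344 CPM in *pry-1(mu38)*, and none was at 0. N2 replicate 2 was the highest library for all 12 and *pry-1(mu38)* replicate 1 the lowest for 11. Both mutant libraries were below both N2 libraries for 7 of the 12 (28% of all genes tested). The strains overlapped for the other 5, among them *pha-4* (log2 −0.09, SE 0.16) and *hlh-6* (log2 −0.18, SE 0.65). The muscle myosin of the pharynx, *myo-2*, was at 259 and 746 CPM in N2 and 51.3 and 144 CPM in *pry-1(mu38)* (log2 −2.36, SE 0.72, DESeq2 adjusted p = 0.00613; log2 −1.41 without N2 replicate 2). The quasi-likelihood test called 8 of the 12 lower with the replicate block (11% of all genes) and 7 without *pry-1(mu38)* replicate 2 (2.91%). The 6 tested markers of the epidermis itself (*lin-26* had too few counts) had a median log2 fold change of −0.01 and the 7 of the intestine one of 0.14. On all 4 libraries no test called any of them. The epidermis markers were not steady over the libraries. The collagen gene *dpy-13* was at 11.9 and 6.44 CPM in N2 and 1.27 and 13.03 CPM in *pry-1(mu38)*, a 10.2-fold difference between the mutant replicates (log2 −0.35, SE 1.03). Of the 6, N2 replicate 2 was the lowest library for 4 and *pry-1(mu38)* replicate 1 for 2. What part the signals of these tissues and the state of N2 replicate 2 have in the caenacin values was not tested.

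**Figure D3:**
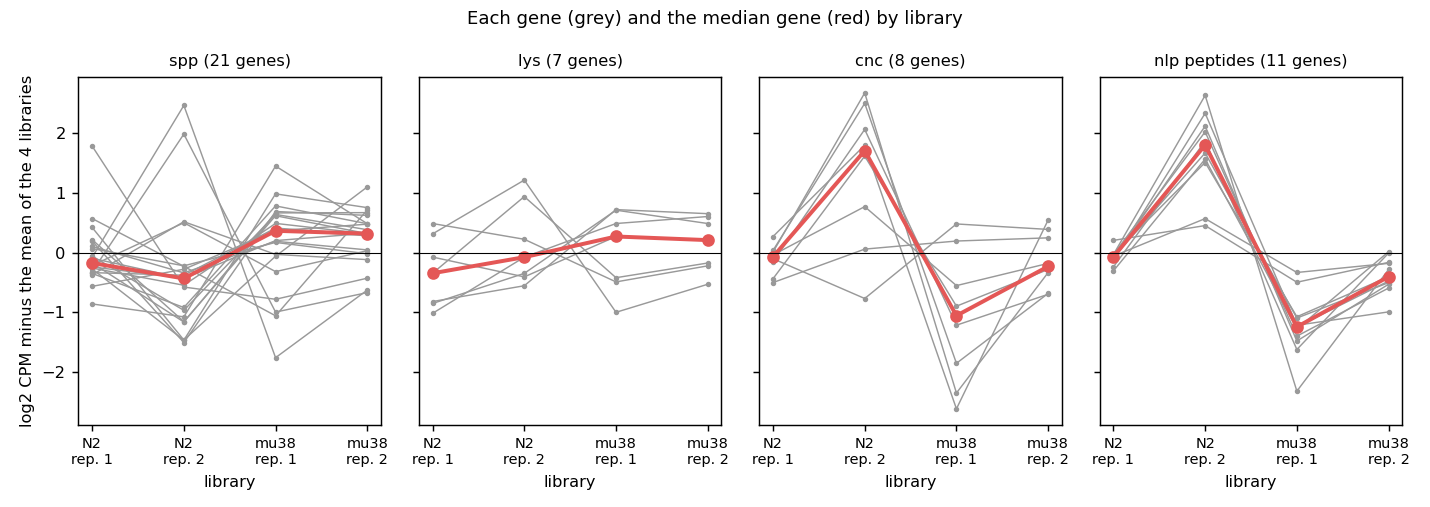
Log2 CPM (2 counts added) of each gene minus its mean over the 4 libraries (y axis), by library (x axis; mu38 stands for *pry-1(mu38)*), for the 21 *spp*, 7 *lys*, 8 *cnc* and 11 *nlp* genes; grey lines are genes and the red line their median. The medians of *cnc* and *nlp* peak in N2 replicate 2, at 1.71 and 1.80, and are lowest in *pry-1(mu38)* replicate 1, while the *spp* median is above 0 in both mutant libraries.

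The position of the genes was compared with their values, since 34 of the members are adjacent to another gene of these families in the WBcel235 annotation. In the longest run, *cnc-11*, *cnc-1*, *cnc-5*, *cnc-4*, *cnc-3* and *cnc-2*, the gene *cnc-3* (log2 0.84) stands between *cnc-4* (log2 −2.90) and *cnc-2* (log2 −1.53). The lysozyme run has *lys-1* at 0.47, followed by *lys-2* at −1.58 and *lys-3* at −0.71. Thus neighbours in these runs had fold changes of opposite sign, as did *abf-5* and *abf-6*. The 6 adjacent genes from *nlp-34* to *nlp-27* all had negative values, from −2.81 to −0.65, and in *spp-3*, *spp-2*, *spp-6*, *spp-4* and *spp-5* the values ran from −0.25 to 0.87. Reads without a unique alignment were listed apart from the genes, at 9.41% and 11.6% of the reads in N2 replicates 1 and 2. In *pry-1(mu38)* replicates 1 and 2 they were 8.04% and 8.57%. Near-identical copies within such runs could lose reads in this way or share others, and how many was not tested.

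**Figure D4:**
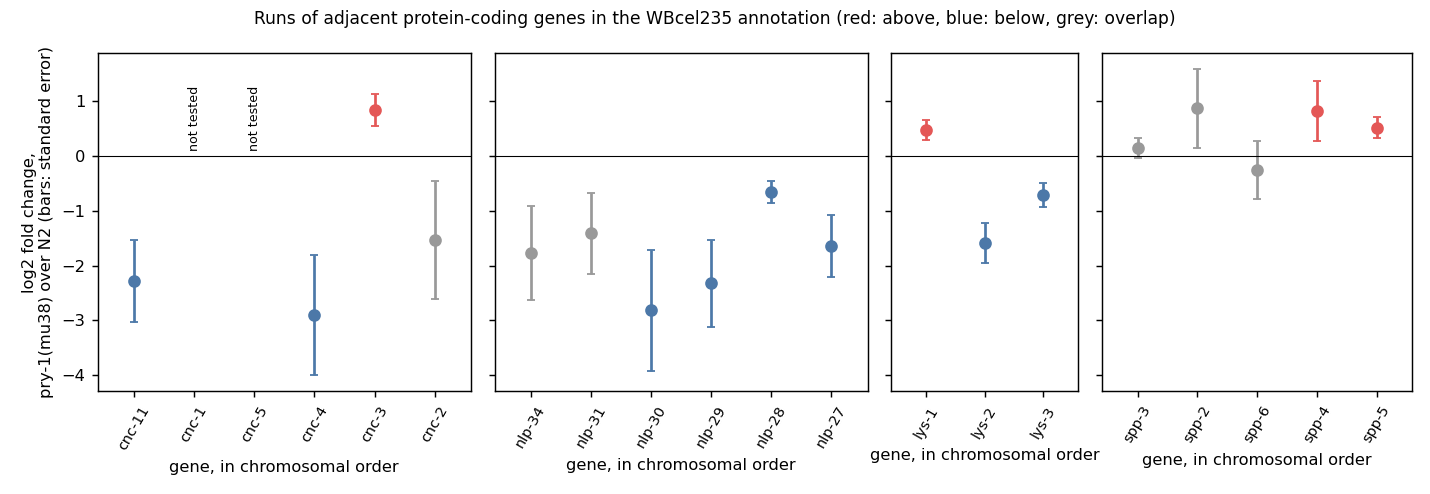
Log2 fold change of *pry-1(mu38)* over N2 (y axis, standard error as bars) in 4 runs of adjacent genes, in chromosomal order without scale; red points are above and blue points below N2 in both mutant libraries, and grey points overlap. Sign changes occur within the *cnc* run at *cnc-3* and within the *lys* run after *lys-1*.

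No thaumatin-like gene was tested. The highest, *thn-1*, had 7 and 27 counts in N2 and 10 and 7 counts in *pry-1(mu38)*, and *thn-2*, *thn-3* and *thn-6* had at most 6 counts in a library. There were 0 counts for *thn-4* and *thn-5* in all libraries, which allows up to 0.0907 to 0.11 CPM (3 counts; counting error only). Transcripts of both were not detectable at this depth.

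The genes known to act upstream of the effectors had median log2 fold changes near 0. Of 16 tested genes of intestinal immune signalling, 13 had negative log2 fold changes, and the median of the 16 was −0.16. DESeq2 called 1 of them lower, *tir-1* (2.31% of all genes were called lower). This gene encodes the TIR-domain adaptor at the head of the p38 pathway used in intestine and epidermis. It was at 446 and 611 CPM in N2 and 233 and 294 CPM in *pry-1(mu38)* (log2 −1.01, SE 0.24, adjusted p = 0.0426 in DESeq2 and 0.345 in the quasi-likelihood test), with both mutant libraries below both wild-type libraries. Over the 16 genes, both mutant libraries were below both wild-type libraries for 9 (28% of all genes tested) and above for 1 (29.1%). In 13 genes of epidermal immune signalling the median was −0.14, with 4 positive and 9 negative values. The listed *dcar-1*, *cebp-1* and *sta-2* had no row under those names. Of the 13, both mutant libraries were below N2 for 4 (28% of all genes tested) and above for 3 (29.1%). DESeq2, the exact test and the quasi-likelihood test called none, nor was any unadjusted p of the quasi-likelihood test under 0.05. Named after their values were seen, *bar-1*, the beta-catenin that Axin restrains, was at 33.6 and 33.9 CPM in N2 and 32.4 and 33.5 CPM in *pry-1(mu38)* (log2 −0.035, SE 0.16), and the Hox gene *egl-5*, which acts with it in the response to bacteria, had overlapping levels of 54.8 and 38.9 CPM in N2 and 63.3 and 54.5 CPM in *pry-1(mu38)* (log2 0.33, SE 0.23).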

How the data were processed

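Whole L1 larvae of N2 and *pry-1(mu38)* were compared, 2 libraries each, grouped by the strain in the labels. The paper calls them biological replicates, and all value columns were matched to a library (0 unmatched). The authors deposited whole-number read counts per gene without normalization. The methods name Bowtie, build ce6, eXpress and DESeq, while the submitters' processing notes name BWA. The counter, its strand setting and the annotation are not given in the sources used here, and lines of reads assigned to no gene were left out.

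Genes kept by filterByExpr (minimum count 10) were scaled by TMM and tested with the quasi-likelihood test of edgeR 4.0.16 in R 4.3.3, with strain as the only term and Benjamini-Hochberg adjustment over 15101 genes (threshold 0.05). The fit was run on simulated data. Recovery of changed genes was required there only at a dispersion (spread beyond counting error) below the common dispersion of these data, 0.0825. How much it recovers at the spread of these data is not given here. CPM use TMM-scaled library sizes. Transcript lengths and neighbours came from the WBcel235 annotation, where 60 of the 61 names matched; 9 other names of the same form there were not analysed here, and coordinates are not given because the builds differ. The alternatives were DESeq2 1.42.0, edgeR's exact test, unscaled library sizes, quantile normalization with DESeq2, no filter, a mean of at least 10 counts, a replicate block and each library left out.

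Every member could be named. Values in each library go to the 4 highest tested members of a family by CPM per kilobase, the 20 with the largest log2 fold changes among members whose counts average 10 or more and whose libraries are separate, and those called by any tool. Genes of other lists are named where called, where among the 3 largest changes of their list or as markers. The members and lists were chosen with earlier results of these data known. The 12 other lists hold intestinal and epidermal immune signalling, *nlp* peptides, infection response genes and markers of 8 tissues or stages, with no list adjusted by itself. Figures were drawn with matplotlib 3.10.9.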

Additional observations from a re-analysis of the deposited data

How the results depend on the processing

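The counts of called members depended on the test: against 0 higher and 0 lower in the quasi-likelihood test, DESeq2 called 4 higher and 2 lower, the exact test 3 and 1, and quantile normalization with DESeq2 5 (with *abf-3*) and 3 (with *cnc-6*). With the replicate block it was 16 higher (4.46% of all genes) and 9 lower (11% of all genes); the strains share only a number, with 2 pairs, the deviations of same-numbered libraries correlated at 0.485 over all genes, and the block medians kept their direction (0.47 for all members). Unscaled library sizes, no filter and a mean of at least 10 counts called 0. Leaving out each library in turn gave 0 to 2 higher (0% to 0.477% of all genes) and 0 to 6 lower (0% to 2.91%), the 2 being *abf-6* and *lys-4* without N2 replicate 2 and the 6 *cnc-2*, *cnc-4*, *cnc-6*, *cnc-8*, *cnc-11* and *lys-2* without *pry-1(mu38)* replicate 2 (1 higher there, *spp-15*), where the lone library was assumed to vary like the other group. Members with separate libraries below N2 numbered 15 with no filter (26% of all genes) and 10 to 19 with a library left out (31.5% to 46.2% of all genes), and those above 24 to 26 (32.3% to 46.8%), since a lone library overlaps less often. The median over all members was 0.53 after quantile normalization, 0.016 with no filter, 0.34 when counts had to average 10 and 0.33 to 0.58 with a library left out; without a filter it was 0.15 for *lys* and −0.0091 for *abf*, since genes of few counts enter. With a library left out the median ranged from 0.31 to 0.66 for *lys*, 0.38 to 0.91 for *ilys*, 0.35 to 0.77 for *spp*, 0.43 to 0.84 for *abf* and −2.16 to −0.45 for *cnc*. Sign changes were seen with a library left out in *abf-1* (−0.058 to 0.37), *ilys-5* (−0.26 to 0.47), *lys-8* (−1.20 to 0.049), *spp-6* (−0.63 to 0.34), *spp-13* (−1.37 to 0.53), *spp-19* (−0.63 to 0.083), *spp-20* (−2.48 to 0.012), *bar-1* (−0.037 to 0.00295) and *dod-24* (−0.61 to 0.76), and after quantile normalization in *spp-6* (0.15) and *spp-13* (1.75e-06); the cause was not tested. Depth limits the *thn* genes and the other 11 untested members, and 2 libraries per strain limit every test.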

Other observations

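Other genes that respond to infection were looked up by name. Of 10 such genes, 3 had a row under the listed name, all of the *dod* group of secreted or CUB-domain proteins controlled by insulin signalling. The names *irg-1* to *irg-7* had no row, and whether these genes have rows under other names was not checked. No test called the *dod* genes (0 by the quasi-likelihood test, DESeq2 and the exact test, and 0 with an unadjusted p under 0.05). The gene *dod-17* was at 13.9 and 27.4 CPM in N2 and 10.2 and 11.5 CPM in *pry-1(mu38)* (log2 −0.93, SE 0.37), with N2 replicate 2 the highest as for the caenacins. Both strains had little *dod-22*, at 2.67 and 1.81 CPM in N2 and 0.993 and 1.81 CPM in *pry-1(mu38)* (log2 −0.67, SE 0.46). For *dod-24* the strains overlapped, with 6.37 and 11.1 CPM in N2 and 5.65 and 14.6 CPM in *pry-1(mu38)* (log2 0.21, SE 0.54).

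Pharynx markers were called lower by DESeq2 in 2 cases (2.31% of all genes were called lower), *myo-2* and the pharyngeal troponin T gene *tnt-4*, which was at 32.6 and 101 CPM in N2 and 8.26 and 21.7 CPM in *pry-1(mu38)* (log2 −2.15, SE 0.72, DESeq2 adjusted p = 0.0193; log2 −1.12 without N2 replicate 2). The largest difference of that list was that of the pharyngeal gland gene *phat-5*, at 55.9 and 269 CPM in N2 and 12.8 and 37.9 CPM in *pry-1(mu38)* (log2 −2.68, SE 0.92; −1.15 without N2 replicate 2), which the quasi-likelihood test, DESeq2 and the exact test did not call on all 4 libraries.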
